A study of Homo sapiens with 14 samples.

Results

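The snoRNA host genes are a group of human genes whose spliced RNA is mostly noncoding and whose introns carry small nucleolar RNAs (snoRNAs). The members were the genes with an SNHG symbol and a number in GENCODE, together with GAS5, ZFAS1 and DANCR, which gave 31 genes of 60876 in the annotation. All 31 are annotated as long noncoding RNA genes, and all 31 passed the filter on low counts among the 15426 genes tested. Poly(A) RNA of MDA-MB-231 cells, an established line of triple-negative breast cancer, was sequenced in 14 libraries, 2 in each of 7 groups. Besides a control, there were cells given 5 µM RBI2 and cells given 5 µM CX-5461, each labelled 10, 30 and 120 min. The small molecule CX-5461 inhibits RNA polymerase I (Pol I), the enzyme that makes the large ribosomal RNA precursor, and RBI2 is the compound that the study set beside it. The study's methods call the control untreated and its results call it DMSO-treated, and the same 2 control libraries served in every comparison with a control. The labels do not say whether the 2 replicates came from separate cultures, so the p-values measure the spread between these libraries, which may be technical.

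snoRNAs are guide RNAs of the nucleolus: the box C/D class directs methylation of ribosomal RNA, the H/ACA class directs pseudouridylation, and the related scaRNAs act on spliceosomal RNA. In human cells most of them are cut out of introns after splicing of a host transcript. Many host genes start transcription at a terminal oligopyrimidine (TOP) tract, a C followed by pyrimidines, which is also the hallmark of mRNAs for ribosomal proteins. The spliced host RNA itself is often degraded by nonsense-mediated decay when it is translated, and GAS5 was named for its accumulation in growth-arrested cells. What the poly(A) libraries measure is the host RNA, spliced or with introns kept, and not the processed snoRNA.

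Before the results, 2 features of the libraries matter. Control 2 stood apart: 20.4% of its estimated reads came from the mitochondrial genome, against 8.05% to 11.15% in the other 13 libraries, and it lay below all 13 others for 10 members and above them for 3. The median over the members of the log2 ratio of control 2 to control 1 was -0.32, and SNHG32, for example, stood at 106 CPM (read counts per library size after scaling) in control 1 and 37.1 CPM in control 2. Where leaving out a control library moved a count by more than 1.5 times, this is stated. Such a fit leaves 1 control library, and without control 1 the calls over all genes rose too in every comparison with the control. The shares over all genes printed below belong to the model with all libraries and are no background for such counts. The second feature concerns time: the deposited file names carry the time codes 02, 10 and 30 for the libraries labelled 10, 30 and 120 min, so the names and the labels do not match. The time that each group stands for, that of CX-5461 labelled 10 min included, is therefore uncertain. If the codes held and 02 meant hours, that is 120 min, the groups labelled 10 min would be the longest treatments. The labels' times are used below as names of groups, and no order over time was read from them. Library totals ran from 14112299 to 24849354 estimated reads. VIM, CD44 and EGFR, which this line expresses strongly, lay between 2779 and 3387 CPM, between 870.3 and 1252 CPM and between 116 and 257 CPM, while ESR1 and CDH1 reached at most 0.236 and 0.295 CPM and PGR stood at 0. ERBB2 (52.5 to 77.9 CPM), EPCAM (9.17 to 14.3 CPM) and KRT19 (59.2 to 84.9 CPM) were present in every library, and PTPRC and PECAM1, markers of blood cells and endothelium, reached at most 0.124 and 0.406 CPM.

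The snoRNAs themselves are the feature that makes these genes a group, and RefSeq places at least 1 snoRNA or scaRNA within the span of 29 of the 31 members, all but SNHG27 and SNHG28. The following sequences are 6 snoRNAs carried by members that differed between groups, printed as read from hg38 on the strand of the host, 5′ to 3′. Capitals mark the box C letters TGATGA near the 5′ end and the box D letters CTGA near the 3′ end in the C/D class, or the letters ACA that end 3 bases before the 3′ end in the H/ACA class.
SNORD44 (GAS5, chr1:173865968-173866028, minus strand): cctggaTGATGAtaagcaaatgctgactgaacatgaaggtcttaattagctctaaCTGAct
SNORD27 (SNHG1, chr11:62855012-62855083, minus strand): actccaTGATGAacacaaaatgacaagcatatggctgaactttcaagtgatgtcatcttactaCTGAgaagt
SNORA73A (SNHG3, chr1:28507365-28507571, plus strand): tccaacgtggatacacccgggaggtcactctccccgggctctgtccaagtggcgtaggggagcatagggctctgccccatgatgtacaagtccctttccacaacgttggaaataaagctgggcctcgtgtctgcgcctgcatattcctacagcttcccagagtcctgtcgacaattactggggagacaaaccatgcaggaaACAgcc
SNORA16A (SNHG12, chr1:28580920-28581053, minus strand): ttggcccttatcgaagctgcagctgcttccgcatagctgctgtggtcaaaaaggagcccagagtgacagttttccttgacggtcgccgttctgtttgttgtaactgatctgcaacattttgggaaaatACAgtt
SNORA71A (SNHG17, chr20:38427306-38427443, minus strand): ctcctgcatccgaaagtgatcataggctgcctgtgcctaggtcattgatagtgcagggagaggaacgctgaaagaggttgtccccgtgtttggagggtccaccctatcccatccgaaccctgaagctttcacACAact
SNORA9 (SNHG15, chr7:44985378-44985510, minus strand): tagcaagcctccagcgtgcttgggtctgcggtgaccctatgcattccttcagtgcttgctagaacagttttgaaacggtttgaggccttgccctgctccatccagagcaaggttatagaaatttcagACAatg
These letters, searched on the host's strand in the first and last 20 bases, were found in 24 of 37 box C/D snoRNAs of the members other than SNHG6 and SNHG14 and in 0 of 37 windows of equal length placed upstream. The ACA letters were found in 20 of 22 H/ACA snoRNAs and in 1 of 22 upstream windows. GAS5 holds 10 box C/D snoRNAs and 1 H/ACA RNA in its span on the minus strand of chr1:173858559-173868882, and SNHG1 holds 8 box C/D snoRNAs on the minus strand of chr11:62851978-62855953. SNHG3 (chr1:28505980-28510892, plus strand), SNHG4 (chr5:139274102-139284899, plus strand) and SNHG17 (chr20:38419638-38435409, minus strand) hold 2, 2 and 4 H/ACA snoRNAs. SNHG12 (chr1:28578538-28583132, minus strand) holds 3 H/ACA and 1 box C/D snoRNA. SNHG14, the host of the imprinted SNORD115 and SNORD116 clusters on chromosome 15, holds 83, the most of any member.

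The members' start sites were read from the RefSeq promoter table (GRCh38.p14), which held 27 of the 31. A TOP start, searched as a C at the annotated first base followed by at least 4 bases that are C or T on the transcribed strand, was found in 7 of 27 members (25.9%), in 33 of 179 promoters of protein-coding snoRNA hosts (18.4%) and in 4.07% of all 35116 promoters of the table. The RefSeq start lies upstream of the GENCODE span for 4 members (by 163 bases for GAS5, 37 for SNHG3, 1 for SNHG4 and 154975 for SNHG14) and more than 1000 bases inside it for SNHG12, SNHG20 and SNHG27, so the motif counts are those of the RefSeq starts. Within 10 bases of the annotated start on either side, such a run was found in 15 of 27 members (55.6%) and in 28.2% of all promoters. The 7 members with the run at the first base are shown from 10 bases before the start, with the run in capitals, because both hosts that differed between groups (SNHG4 and SNHG12) and hosts for which no difference was called (the other 5) are among them.
SNHG4 start (chr5:139274091-139274140, plus strand): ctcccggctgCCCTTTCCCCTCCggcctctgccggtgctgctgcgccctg
SNHG12 start (chr1:28581834-28581883, minus strand): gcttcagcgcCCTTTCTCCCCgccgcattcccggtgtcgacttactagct
SNHG5 start (chr6:85678694-85678743, minus strand): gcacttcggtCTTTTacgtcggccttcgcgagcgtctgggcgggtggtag
SNHG32 start (chr6:31834906-31834955, plus strand): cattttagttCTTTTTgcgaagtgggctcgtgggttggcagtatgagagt
ZFAS1 start (chr20:49278632-49278681, plus strand): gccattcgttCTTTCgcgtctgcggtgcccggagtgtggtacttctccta
SNHG19 start (chr16:2155319-2155368, minus strand): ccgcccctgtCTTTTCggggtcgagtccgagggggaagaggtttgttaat
SNHG18 start (chr5:9546190-9546239, plus strand): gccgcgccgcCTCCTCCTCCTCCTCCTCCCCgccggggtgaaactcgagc

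The members differed widely in abundance. By mean TPM, a share of all transcripts that corrects for their length, SNHG29 led with 747, followed by SNHG5 with 472, GAS5 with 405, ZFAS1 with 297, SNHG1 with 249.8 and SNHG8 with 239.8. Together the members took 0.149% to 0.225% of each library's reads, and the 6 with the most reads (SNHG29, SNHG16, SNHG1, GAS5, SNHG5 and SNHG7) held between 63.8% and 69.5% of these. For 9 members the mean was under 5 CPM, between 0.55 and 4.25 CPM: SNHG14, SNHG9, SNHG25, SNHG21, SNHG18, SNHG28, SNHG27, SNHG22 and SNHG31. At these levels some libraries held only a few reads, down to 1 read for SNHG28 and 3 for SNHG27 and SNHG22, so that only large differences could be detected there. All values are shares of the poly(A) RNA of a bulk culture, in which fewer cells with a transcript and less of it per cell cannot be told apart.

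In a test of any difference among the 7 groups (edgeR's quasi-likelihood F test, Benjamini-Hochberg adjustment over 15426 genes), 10 members passed at an adjusted p under 0.05, and across all genes tested the share was 11%. They were SNHG3 (adjusted p = 2.9e-05), SNHG4, SNHG17, GAS5, SNHG12, SNHG26, SNHG16, SNHG15, SNHG1 and SNHG20. Leaving out control 1 raised this count to 18. For these same 10 genes both libraries of CX-5461 labelled 10 min lay below all the other 12 libraries, and for 0 members did both lie above them, which held for 6.19% and 4.12% of all genes tested.

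**Figure D1:**
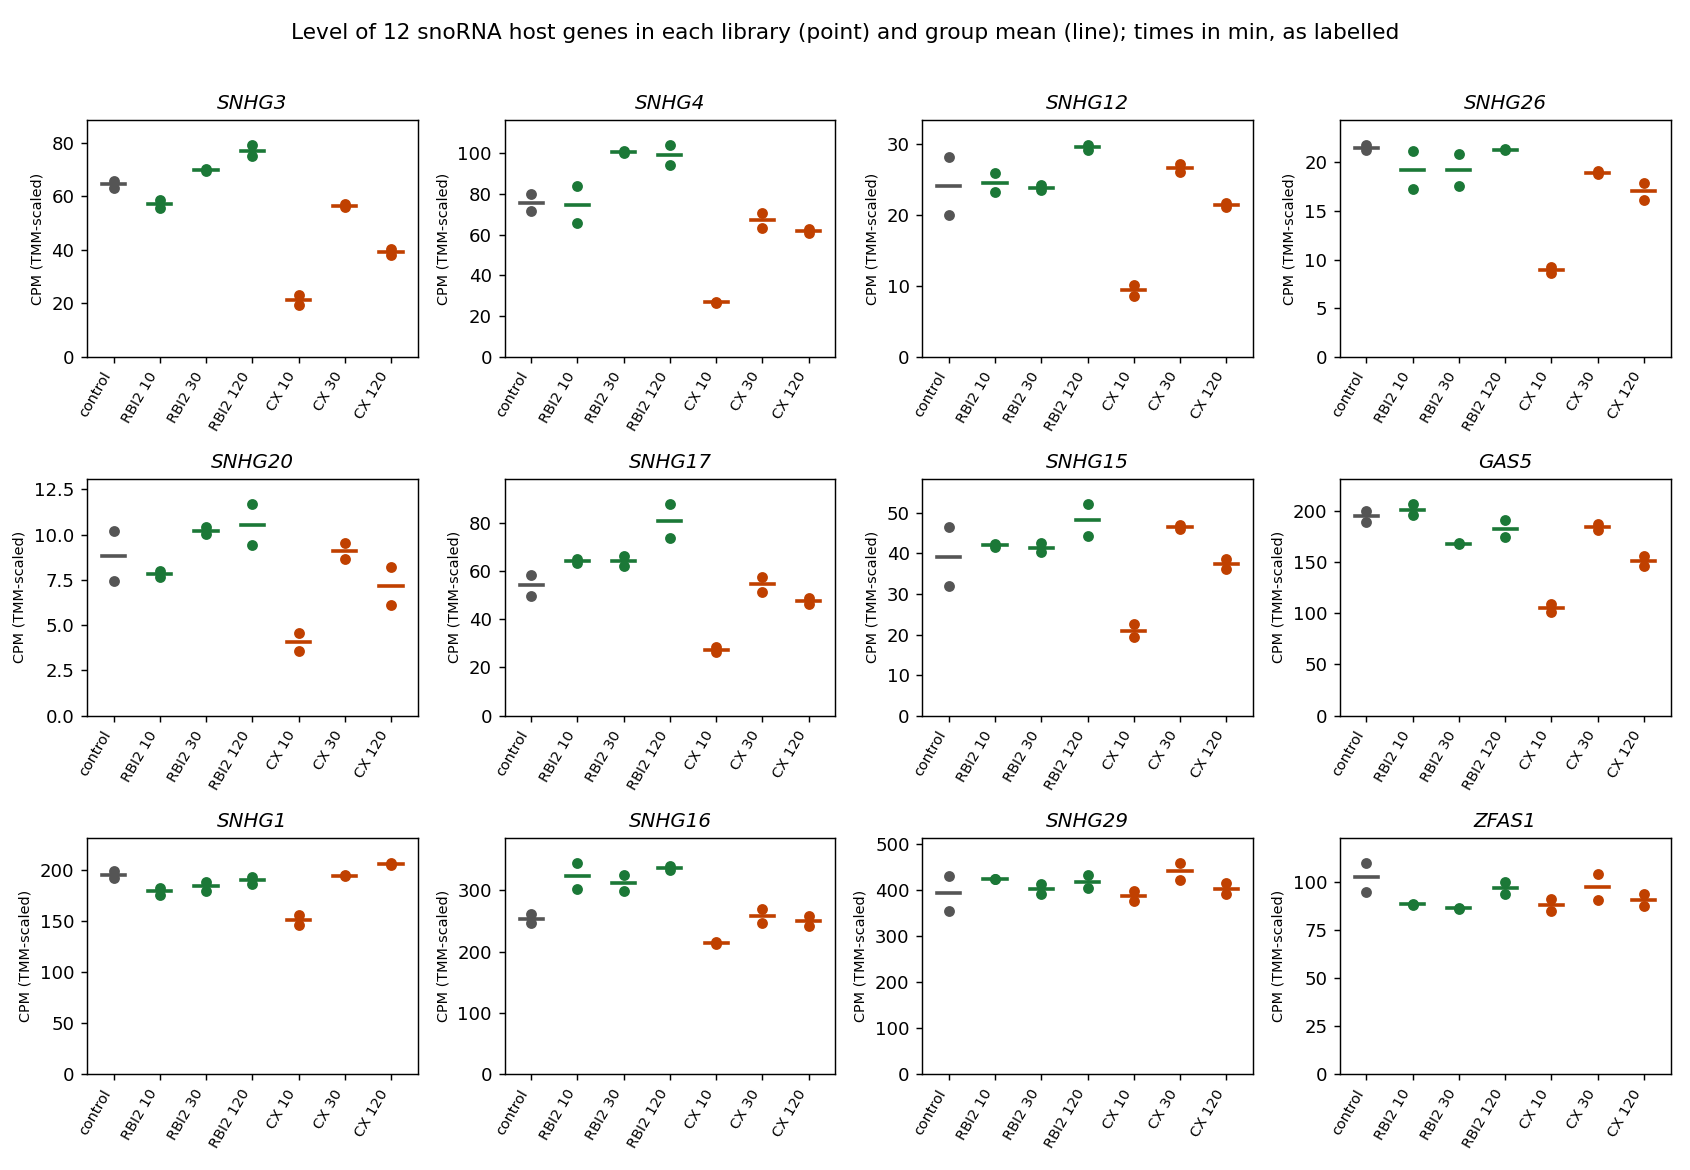
CPM after TMM scaling (y axis, from 0) in each library (points) and as group means (lines) for the 10 members that differed among groups and for SNHG29 and ZFAS1, with the control in grey, RBI2 in green and CX-5461 in orange. Both libraries of CX-5461 labelled 10 min lie below all 12 others for the first 10 genes shown, from SNHG3 to SNHG16, and for SNHG29 and ZFAS1 they do not both lie below the others.

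The first question was what CX-5461 did to the hosts relative to the control. In the group labelled 10 min, 9 members were lower and 0 were higher than in the control, and across all genes tested 2.98% were lower and 1.8% higher. The 9 adjusted p-values lay between 5.09e-06 and 0.0119, and the median log2 fold change was -0.25 over the members and -0.04 over all genes tested. Of the 9, 5 also passed a limit of 2-fold, as did 0.888% of all genes in this direction. Both libraries lay below both control libraries for 18 of 31 members, which held for 24% of all genes. Leaving out control 1, so that control 2 stood alone, gave 11 lower and 6 higher, and leaving out control 2 gave 11 lower and 0 higher. In a model of the 4 libraries of this comparison alone, 0 members passed by edgeR (3 genes in all), and the folds stayed close to those of the model with all libraries. Such models without the control kept calls: 9 members (383 genes in all) for CX-5461 labelled 10 against 30 min and 9 (928 genes) against 120 min. The p-values against the control rest on a spread pooled over all 7 groups. Why the calls were lost in the smaller model was not tested.

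SNHG3, which carries the H/ACA snoRNAs SNORA73A and SNORA73B, fell the most. It was counted at 63.2 and 65.9 CPM in the control and at 23.1 and 19.5 CPM in CX-5461 labelled 10 min, a log2 fold change of -1.60 ± 0.09 (SE, 2 libraries a group; adjusted p = 5.1e-06). The groups labelled 30 min (57.2 and 56.0 CPM) and 120 min (38.1 and 40.2 CPM) lay between these. In the latter SNHG3 was the one member called against the control (log2 fold change -0.72, adjusted p = 0.014), and without retained-intron transcripts this call was lost (-0.68, adjusted p = 0.097). SNHG3 overlaps RCC1 on the same strand, where shared reads have to be divided by Salmon. RCC1, a chromatin-bound exchange factor for Ran, varied only between 134.8 and 151.8 CPM across the 14 libraries.

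SNHG4, a host of H/ACA snoRNAs, stood at 71.5 and 80.0 CPM in the control and at 26.6 and 26.9 CPM in CX-5461 labelled 10 min. The log2 fold change was -1.50 ± 0.12 (adjusted p = 6.2e-05). In the groups labelled 30 and 120 min it stood at 70.8 and 63.5 CPM and at 62.8 and 61.0 CPM, all under both control values, and it was not called in either. SNHG4 overlaps a GENCODE entry of MATR3, a nuclear matrix protein, on the same strand of chromosome 5. The estimates for this MATR3 entry ran from 8.95 to 259.7 CPM and differed widely within groups. They were 53.1 and 16.6 CPM in the control and 79.6 and 120.1 CPM in CX-5461 labelled 10 min, higher where SNHG4 was lower. In CX-5461 labelled 120 min MATR3 stood highest, at 169.4 and 259.7 CPM, where SNHG4 was not called. In RBI2 labelled 120 min, where SNHG4 was higher, MATR3 stood at 44.3 and 74.75 CPM. Reads on any other entry of the symbol MATR3 were not examined, so these values need not be those of the whole gene. The part of the division of shared reads in the values of SNHG4 was not tested.

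SNHG12 was lower by a similar factor, from 28.2 and 20.05 CPM in the control to 10.2 and 8.51 CPM (log2 fold change -1.37 ± 0.15, adjusted p = 0.00057), a call that was lost without retained-intron transcripts (-0.93, adjusted p = 0.3). The groups labelled 30 min (27.2 and 26.0 CPM) and 120 min (21.7 and 21.1 CPM) overlapped the control. SNHG26, which holds the box C/D snoRNA SNORD93, went from 21.8 and 21.2 CPM to 8.57 and 9.28 CPM (log2 fold change -1.27 ± 0.13, adjusted p = 0.0003). Its other CX-5461 libraries stood at 18.8, 19.1, 17.9 and 16.2 CPM, all under both control values, but no call was made for them.

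SNHG20, the host of SCARNA16, was the least abundant of the called members, with 10.2 and 7.43 CPM in the control and 4.58 and 3.56 CPM in CX-5461 labelled 10 min (log2 fold change -1.12 ± 0.21, adjusted p = 0.012). It shares part of its strand with SEC14L1, which stood at 165.2 and 173.6 CPM in these treated libraries and at 174.9 and 178.7 CPM in the control. SNHG17, the host of SNORA71A to SNORA71D, went from 58.4 and 49.6 CPM to 28.3 and 26.3 CPM (log2 fold change -0.98 ± 0.11, adjusted p = 0.0007). SNHG15, the host of SNORA9, went from 46.4 and 32.0 CPM to 22.6 and 19.3 CPM (log2 fold change -0.91 ± 0.16, adjusted p = 0.0089). For all 3 genes the treated and control libraries did not overlap, while the groups labelled 30 min and 120 min were not called. With a length offset the SNHG15 call at the label 10 min was lost. Over the alternatives and the fits with a library left out, the log2 fold change of SNHG15 ran from -1.15 to -0.558. That of SNHG20 ran from -1.32 to -0.868.

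GAS5, the host of SNORD44, SNORD47 and SNORD74 to SNORD81, stood at 200.6 and 189.8 CPM in the control and at 108.8 and 101.5 CPM in CX-5461 labelled 10 min, a log2 fold change of -0.89 ± 0.07 (adjusted p = 9.5e-05) that turned to 0.67 (adjusted p = 0.08) without transcripts annotated as retained introns. Its levels were 181.6 and 187.0 CPM in the group labelled 30 min and 156 and 146.0 CPM in the group labelled 120 min, where the log2 fold change of -0.37 ± 0.07 was not called (adjusted p = 0.23). SNHG1, the host of SNORD22 and SNORD25 to SNORD31, changed the least of the 9, from 191.7 and 198.7 CPM to 155.8 and 146.2 CPM (log2 fold change -0.37 ± 0.06, adjusted p = 0.0084). The SNHG1 call was lost with a length offset, and its log2 fold change ran from -0.406 to -0.285 over the alternatives and the fits with a library left out. In its other CX-5461 libraries SNHG1 stood between 193.9 and 206.7 CPM, within or above the control values.

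Other hosts of the same kind were not called. SNHG29, the most abundant member and the host of SNORD49A, SNORD49B and SNORD65, stood at 431.6 and 355.5 CPM in the control and at 399.1 and 376.1 CPM in CX-5461 labelled 10 min, inside the range of the control, with a log2 fold change of -0.02 ± 0.09. ZFAS1, the host of the SNORD12 family, was estimated at 95.1 and 110.2 CPM and at 91.2 and 84.9 CPM (log2 fold change -0.22 ± 0.09, adjusted p = 0.2). DANCR, which holds SNORA26, stood at 66.1 and 63.5 CPM and at 58.4 and 55.6 CPM (log2 fold change -0.19 ± 0.10, adjusted p = 0.27). For both genes the treated libraries lay below the 2 control libraries, and neither passed the test.

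Of the 6 members with the most reads, SNHG5, the host of SNORD50A and SNORD50B, and SNHG7, the host of SNORA17A and SNORA17B, differed most between the 2 control libraries. SNHG5 stood at 146.3 and 96.2 CPM in the control and at 136.0 and 136.8 CPM in CX-5461 labelled 10 min. SNHG7 stood at 125.1 and 66.4 CPM in the control and at 86.8 and 88.7 CPM in the treated group, and SNHG19 stood at 9.14 and 1.92 CPM in the control. For these genes the control spanned the treated values and no change against it was called. How large a change could be detected in genes that vary this much was not tested. SNHG16, the host of the SNORD1 family, stood at 261.4 and 246.5 CPM in the control and at 216 and 212.7 CPM in CX-5461 labelled 10 min (log2 fold change -0.25 ± 0.08, adjusted p = 0.12). Its treated libraries lay below all 12 others, and it was not called against the control.

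Grouped by the snoRNAs they hold, and counting the 22 members with a mean of at least 5 CPM, 2 of 10 hosts of box C/D snoRNAs alone were lower (SNHG1 and SNHG26), with a median log2 fold change of -0.08. Of the hosts of H/ACA snoRNAs alone 4 of 8 were lower (SNHG3, SNHG4, SNHG15 and SNHG17), with a median of -0.62, while DANCR, SNHG7, SNHG8 and SNHG11 were not called. Both hosts with the 2 classes (GAS5 and SNHG12) and 1 of 2 scaRNA hosts (SNHG20, and not SNHG10) were lower, although GAS5 and SNHG12 were not called without retained-intron transcripts. The difference between the classes was not tested. Among the members with a TOP run at the first base of the RefSeq start 2 of 7 were lower, and among those without one 6 of 20, with medians of -0.22 and -0.26. For a run within 10 bases of that start, 3 of 15 members with it and 5 of 12 without it were lower. The medians there were -0.245 and -0.149, and neither split was tested.

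**Figure D2:**
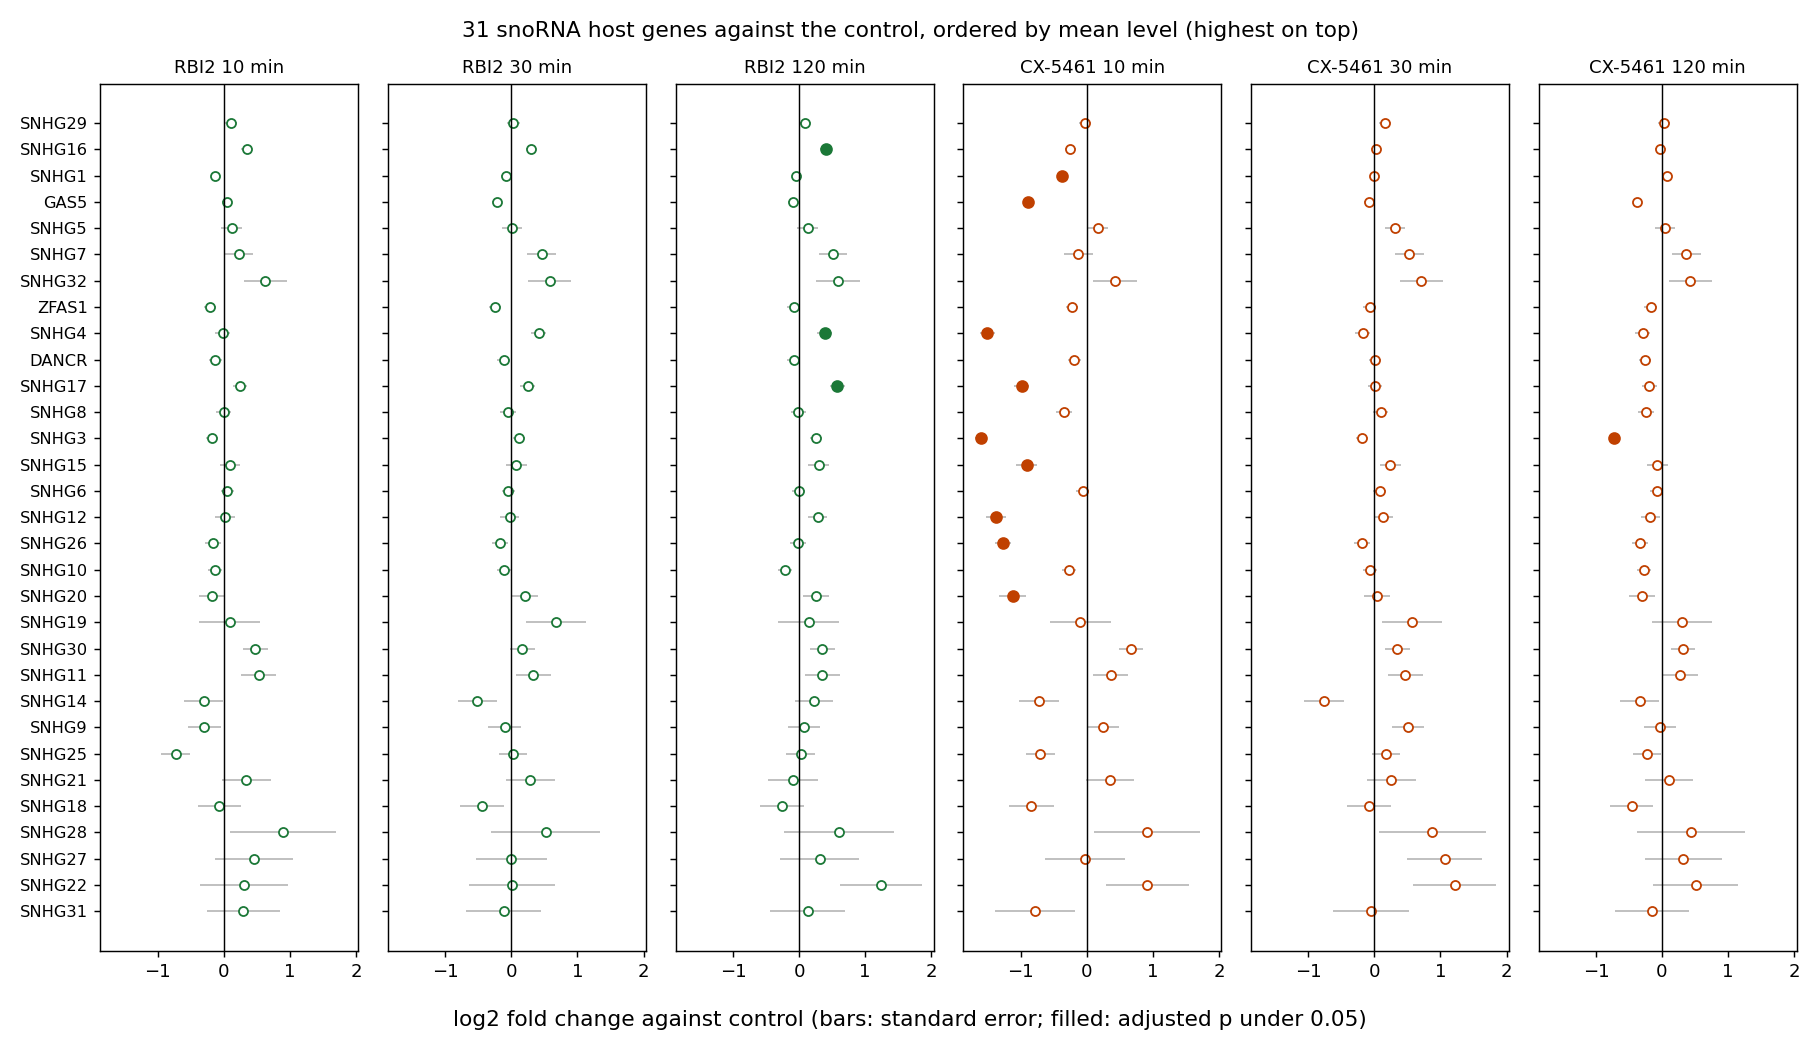
Log2 fold change against the control (x axis, with bars of 1 standard error) for the 31 members, ordered by mean CPM, in the 6 treated groups; filled points passed at an adjusted p under 0.05. The filled points number 9 in CX-5461 labelled 10 min, all left of 0, 1 in CX-5461 labelled 120 min and 3 in RBI2 labelled 120 min, right of 0.

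CX-5461 labelled 30 min gave 0 called members against the control by edgeR, where 0% of all genes were called. At an unadjusted p under 0.05 there were 2 members (22.9% of all genes), and 0 by DESeq2 (25 genes in all). The lowest adjusted p of a member was 0.21 (SNHG14 and SNHG7). Leaving out control 1 gave calls, most of them higher, in a fit that also called far more of all genes. CX-5461 labelled 120 min gave 1 lower member, SNHG3, where 0.0324% of all genes were higher and 0.0454% lower, and the call was lost without either library of that group and without the second library of RBI2 labelled 10 or 30 min (count 0). Leaving out control 1 gave 7.

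The groups of CX-5461 could also be compared with each other, where the fold changes set no value against the control, although the control libraries enter the scaling and the estimate of the spread. Against CX-5461 labelled 30 min, 9 members were lower in the group labelled 10 min, and 0 were higher, where 1.4% of all genes were lower and 1.03% higher. SNHG12 (-1.51 ± 0.15), SNHG3 (-1.41 ± 0.09), SNHG4 (-1.33 ± 0.12) and SNHG20 (-1.16 ± 0.21) had the largest log2 fold changes. SNHG15 (-1.15), SNHG26 (-1.09), SNHG17 (-0.995), GAS5 (-0.81) and SNHG1 (-0.36) followed. Without retained-intron transcripts GAS5 (-0.18, adjusted p = 0.85), SNHG12 (-1.59, adjusted p = 0.18) and SNHG1 (-0.34, adjusted p = 0.054) lost the call. The median was -0.36 over the members and 0.00 over all genes tested, and both libraries labelled 10 min lay below both labelled 30 min for 23 of 31 members, as for 22.3% of all genes.

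Against CX-5461 labelled 120 min, 8 members were lower in the group labelled 10 min, where 2.16% of all genes were lower and 0.959% higher. They were SNHG4 (-1.21 ± 0.12), SNHG12 (-1.19 ± 0.15), SNHG26 (-0.94), SNHG3 (-0.88), SNHG15 (-0.84), SNHG17 (-0.80), GAS5 (-0.52) and SNHG1 (-0.44). Without retained-intron transcripts GAS5 turned to 0.034 (adjusted p = 0.94), SNHG12 lost the call (-0.80, adjusted p = 0.41) and SNHG3 stood at -0.49 (adjusted p = 0.046). The count was less stable: it was 3 without the first and 2 without the second library of CX-5461 labelled 10 min, and 4 without CX-5461 labelled 120 min replicate 2. Between the groups labelled 120 and 30 min 0 members were called by edgeR, where 0.013% of all genes were higher and 0% lower. At an unadjusted p under 0.05 there were 5 (19.3% of all genes), and 2 by DESeq2 (113 genes in all). Leaving out control 1 or control 2 raised the edgeR count, in fits that leave 1 control library. All comparisons with CX-5461 labelled 10 min share its 2 libraries, so their values are not independent of one another.

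**Figure D3:**
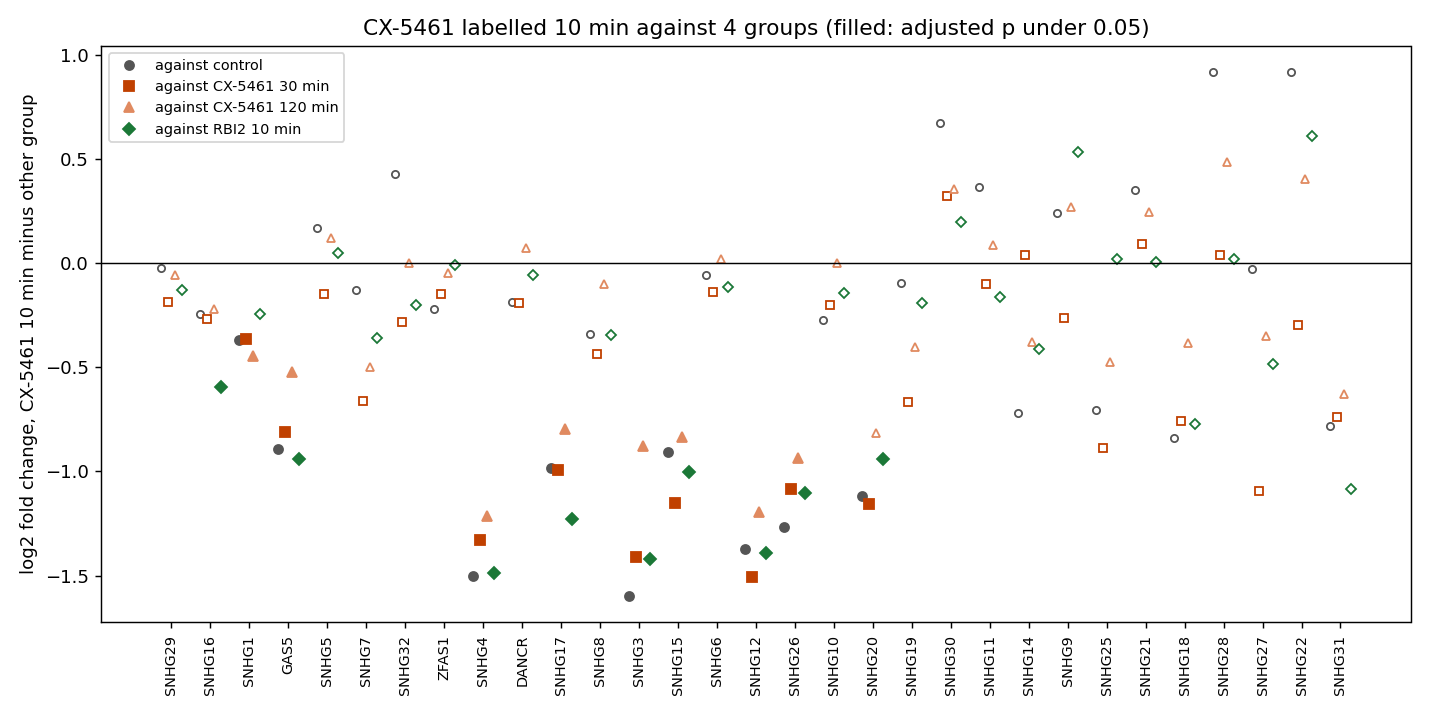
Log2 fold change of CX-5461 labelled 10 min against the control, CX-5461 labelled 30 min, CX-5461 labelled 120 min and RBI2 labelled 10 min (y axis) for the 31 members ordered by mean CPM; filled symbols passed at an adjusted p under 0.05. SNHG4, SNHG3, SNHG12, SNHG17, SNHG15, SNHG26 and GAS5 are below 0 and filled in all 4 comparisons, which share the 2 libraries of CX-5461 labelled 10 min.

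RBI2 gave few calls against the control. In the group labelled 10 min 0 members passed by edgeR, where 0.136% of all genes were higher and 0.0648% lower. At an unadjusted p under 0.05 there were 4 (12.9% of all genes), and 1 by DESeq2 (176 genes in all). Leaving out control 1 gave calls, most of them higher, and the calls over all genes rose as well. In the group labelled 30 min 0 passed, where 0.0259% were higher and 0.0454% lower. At an unadjusted p under 0.05 there were 5 (25.8% of all genes), and 2 by DESeq2 (983 genes in all). Leaving out control 1 raised both the member count and the calls over all genes. SNHG16 had the lowest adjusted p in the first (0.16, log2 fold change 0.35 ± 0.08) and SNHG4 in the second (0.11, log2 fold change 0.41 ± 0.11).

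RBI2 labelled 120 min gave 3 higher members and 0 lower, while 8.9% of all genes were higher and 9.07% lower, so the share of higher members, 3 of 31, was near that of all genes. SNHG17 rose from 58.4 and 49.6 CPM in the control to 87.6 and 73.6 CPM (log2 fold change 0.58 ± 0.11, adjusted p = 0.012). SNHG16 rose from 261.4 and 246.5 CPM to 332.7 and 339.2 CPM (log2 fold change 0.40 ± 0.08, adjusted p = 0.014). SNHG4 rose from 71.5 and 80.0 CPM to 104.0 and 94.4 CPM (log2 fold change 0.39 ± 0.11, adjusted p = 0.04). In all 3 the treated libraries lay above both control libraries, but none passed a limit of 2-fold. With replicates blocked SNHG4 missed the threshold (adjusted p = 0.051), and with a length offset SNHG4 alone was called. The call count fell without either library of RBI2 labelled 120 min. It rose without control 1, where the calls over all genes rose too. Each of these fits leaves 1 library in a group, and the shares over all genes printed here are no background for them. In a model of the 4 libraries alone the call count was 0.

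No member was called lower than the control in an RBI2 group. SNHG3 stood at 55.7 and 58.6 CPM in RBI2 labelled 10 min, at 69.6 and 70.1 CPM at 30 min and at 79.1 and 75.0 CPM at 120 min. It was the one member called between RBI2 groups, lower at the label 10 min than at 120 min by a log2 fold change of -0.43 ± 0.09 (adjusted p = 0.024), where 3.43% of all genes were lower and 3.01% higher. Without retained-intron transcripts the value turned to 0.11 (adjusted p = 0.6). The call was lost in 5 of the 14 fits that each left out a library, among them each library labelled 10 min and each labelled 120 min. The count was 0 without the first library labelled 10 min, the second labelled 30 min or either labelled 120 min, and 4 without control 1 or without control 2. The other pairs of RBI2 groups gave 0 called members by edgeR. Between the labels 10 and 30 min 0.136% of all genes were higher and 0.0519% lower. There 4 members had an unadjusted p under 0.05 (9.21% of all genes), and DESeq2 called 1 (119 genes in all). Between 120 and 30 min 0.013% were higher and 0% lower. There 2 members had an unadjusted p under 0.05 (10.3% of all genes), and DESeq2 called 0 (159 genes in all).

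GAS5 in RBI2 stood at 206.8 and 196.2 CPM at the label 10 min, at 167.8 and 168.4 CPM at 30 min and at 191.1 and 174.7 CPM at 120 min. SNHG1 ranged between 175.7 and 193.3 CPM over the 6 RBI2 libraries. ZFAS1 ranged between 86.4 and 100.1 CPM and DANCR between 57.3 and 64.1 CPM. These 4 hosts were not called against the control in any RBI2 group. SNHG29 stood between 392.4 and 432.3 CPM, SNHG5 between 116.3 and 141.6 CPM and SNHG7 between 112.1 and 145.7 CPM in RBI2.

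The direct comparison of the compounds at one label asked where the hosts respond differently. At the label 10 min 9 members were higher with RBI2 than with CX-5461 and 0 were lower, where 2.23% of all genes were higher and 0.83% lower, and 6 of the 9 also passed 2-fold, as did 0.635% of all genes. SNHG4 (74.9 against 26.7 CPM on average, log2 fold change 1.49 ± 0.12), SNHG3 (57.1 against 21.3 CPM, 1.42 ± 0.09) and SNHG12 (24.5 against 9.35 CPM, 1.39 ± 0.15) differed the most. SNHG17 (1.23), SNHG26 (1.10), SNHG15 (1.00), GAS5 (0.94), SNHG20 (0.94) and SNHG16 (0.59) followed. The SNHG20 call was lost with the length offset, and its value ran from 0.67 to 1.13 over the alternatives and the fits with a library left out. SEC14L1, which overlaps SNHG20, stood at 202.9 and 250.2 CPM with RBI2 and at 165.2 and 173.6 CPM with CX-5461. For SNHG16, the values were 302.7 and 344.7 CPM with RBI2 against 216 and 212.7 CPM with CX-5461, so that the groups were well apart. SNHG1 was not called in this comparison. Without retained-intron transcripts GAS5 turned to -0.55 (adjusted p = 0.19), and SNHG12 (1.35, adjusted p = 0.24) and SNHG20 (0.93, adjusted p = 0.056) lost the call. SNHG20 has 0 transcripts annotated as retained introns, so none of its own reads were left out and its fold hardly moved.

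At the label 30 min 0 members differed between the compounds by edgeR, where 0% of all genes were higher and 0.013% lower. At an unadjusted p under 0.05 there were 4 members (7.79% of all genes), and 1 by DESeq2 (47 genes in all). SNHG4 came closest, with 101.2 and 100.4 CPM in RBI2 and 70.8 and 63.5 CPM in CX-5461, a log2 fold change of 0.59 ± 0.11 (adjusted p = 0.35). A model of the 4 libraries of this label alone called 1 member (43 genes in all).

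At the label 120 min 5 members were higher with RBI2 and 0 were lower, where 5.28% of all genes were higher and 10.9% lower. SNHG3 stood at 79.1 and 75.0 CPM with RBI2 and at 38.1 and 40.2 CPM with CX-5461, a log2 fold change of 0.98 ± 0.09 (adjusted p = 0.0021). SNHG17 (87.6 and 73.6 against 48.6 and 46.1 CPM, log2 fold change 0.77 ± 0.11) and SNHG4 (104.0 and 94.4 against 62.8 and 61.0 CPM, 0.68 ± 0.11) also did not overlap between the compounds. SNHG16 (0.43 ± 0.08) and GAS5 (0.28 ± 0.07) differed by less, and without retained-intron transcripts the value of GAS5 turned to -0.40 (adjusted p = 0.18) and that of SNHG3 was 0.43 (adjusted p = 0.028). The median over the members was 0.17, and 0.01 over all genes tested. The count of called members fell without the second CX-5461 library or without either RBI2 library of this label. It rose without control 1 or without control 2. Each of these fits leaves 1 library in a group, and the shares over all genes printed here are no background for them.

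Part of these differences lay in which isoforms received the reads. GENCODE annotates 29 of the 91 transcripts of GAS5 as retained introns, isoforms that keep an intron in the poly(A) RNA, 2 of 3 for SNHG3, 10 of 19 for SNHG12 and 13 of 80 for SNHG1. Salmon assigned 75.4% and 80.2% of GAS5 reads in the control to such isoforms, against 31.4% and 36.9% in CX-5461 labelled 10 min, while RBI2 libraries ranged from 67.6% to 78.5%. In CPM, the retained-intron isoforms of GAS5 went from 151.3 and 152.2 in the control to 34.2 and 37.5 in CX-5461 labelled 10 min. The other isoforms went from 49.4 and 37.7 to 74.7 and 64.0, in the opposite direction. The same isoforms stood at 112.4 and 102.2 CPM at the label 30 min and at 87.0 and 75.6 CPM at 120 min of CX-5461, where the other isoforms were at 69.2, 84.9, 69.0 and 70.3 CPM, above both control values.

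With the retained-intron transcripts left out of all genes, GAS5 passed in none of the comparisons in which its total was called. The lower total of GAS5 in CX-5461 labelled 10 min thus rested on isoforms annotated as keeping an intron.

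SNHG3 differed from GAS5. Its retained-intron isoforms went from 23.6 and 21.7 CPM in the control to 2.80 and 2.94 CPM in CX-5461 labelled 10 min, but its other isoforms also went from 39.6 and 44.3 CPM to 20.3 and 16.6 CPM. Without the retained-intron isoforms the log2 fold change was -1.17 (adjusted p = 0.00026). In RBI2 the retained-intron share of SNHG3 was 29.9% and 37.0% at the label 10 min and between 53.3% and 57.6% at the labels 30 and 120 min. Its other isoforms in RBI2 stood between 29.5 and 39.0 CPM, below both control values, so the higher total at the label 120 min came with retained-intron isoforms at 45.3 and 39.98 CPM.

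SNHG12 received most of its reads on retained-intron isoforms in every library, between 72.3% and 90.9%. SNHG1 received between 11.03% and 19.9% on such isoforms and kept a log2 fold change of -0.32 without them (adjusted p = 0.043). The share of SNHG26 on such isoforms was 0.64% and 0.63% in CX-5461 labelled 10 min, against 6.36% and 8.83% in the control. That of SNHG6 was 4.17% and 4.44% against 9.07% and 11.07%. SNHG5 (1.03% and 0.71% against 0.49% and 0%) and SNHG29 (0.72% and 0.97% against 0% in both) went the other way. The share over all genes was not examined, so these shifts have no background. Isoform assignments by Salmon are estimates from short reads, and how far they hold for single isoforms was not tested.

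**Figure D4:**
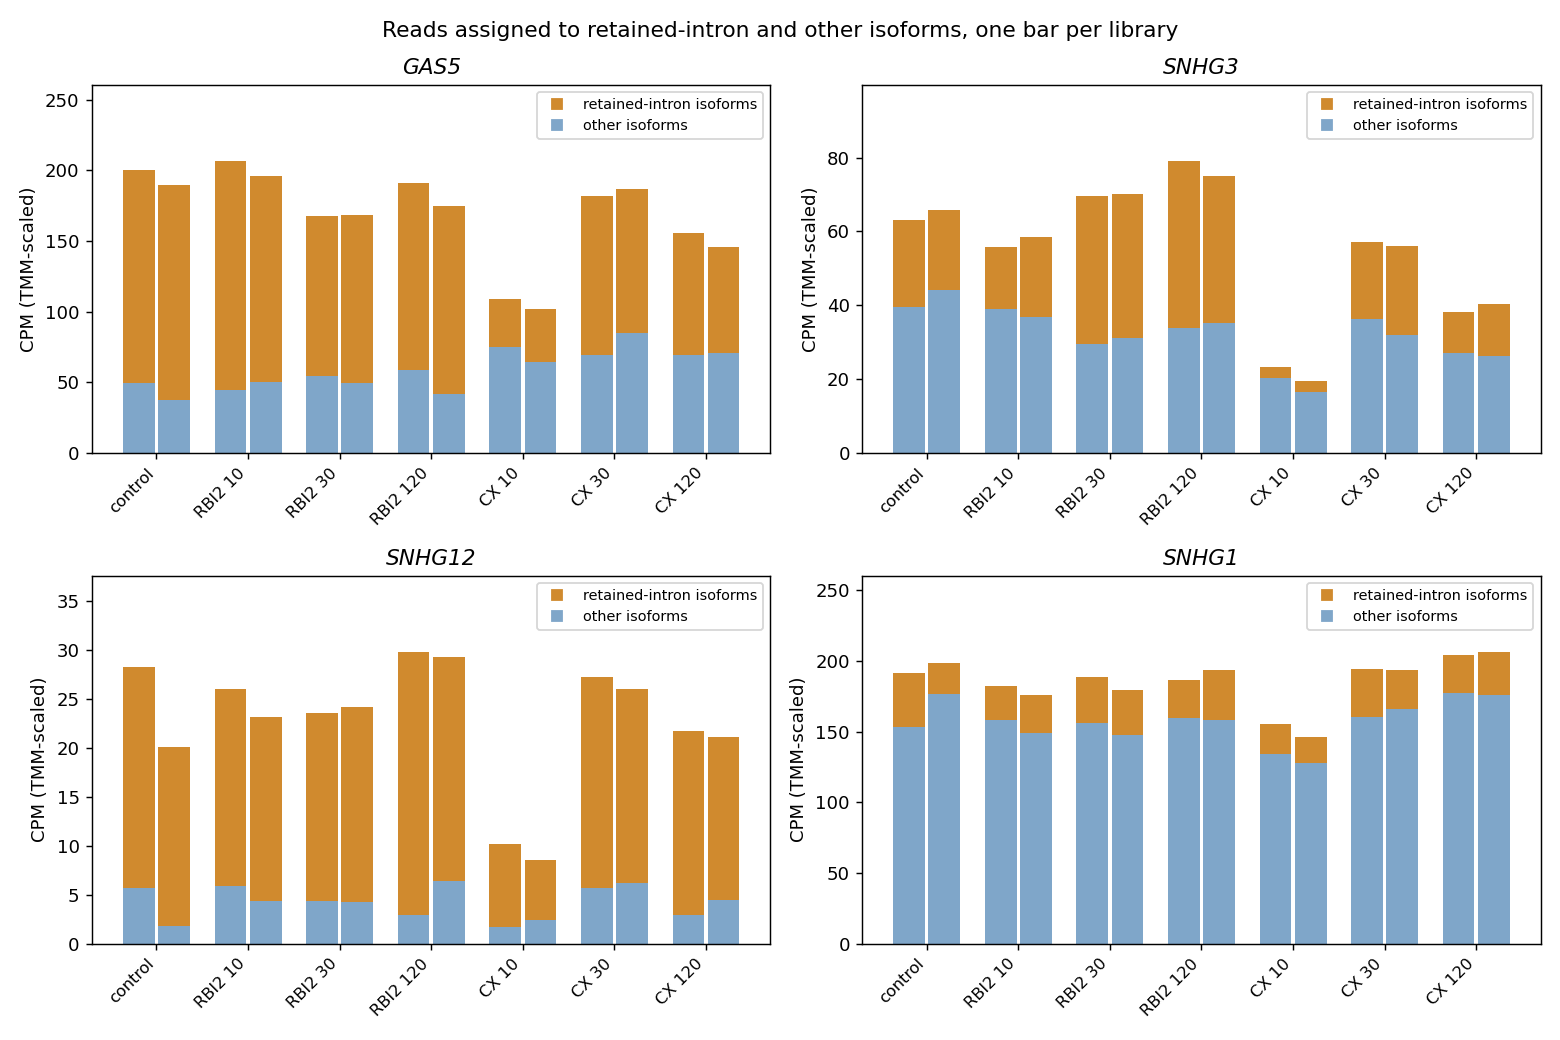
CPM after TMM scaling (y axis, from 0) assigned to isoforms annotated as retained introns (orange) and to the other isoforms (blue) of GAS5, SNHG3, SNHG12 and SNHG1, with 1 bar for each library. In CX-5461 labelled 10 min the orange part of GAS5 is at 34.2 and 37.5 CPM while the blue part is above that of the control, and for SNHG3 both parts are lower.

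The remaining members gave no call in any comparison. SNHG8 (SNORA24) ranged from 44.03 to 65.6 CPM, SNHG6 (SNORD87) from 32.4 to 41.1 CPM, SNHG10 (SCARNA13) from 8.23 to 10.4 CPM and SNHG32 (SNORD48 and SNORD52) from 37.1 to 122.3 CPM, its lowest value being control 2. SNHG30 (SNORD7) ranged from 3.83 to 7.12 CPM, with both libraries of CX-5461 labelled 10 min (6.90 and 7.12 CPM) above the control (4.91 and 3.83 CPM), at a log2 fold change of 0.67 that was not called. SNHG11 (SNORA60 and SNORA71E) ranged from 3.20 to 7.04 CPM and SNHG19 (SNORD60) from 1.92 to 9.22 CPM. SNHG25, the host of SNORD104, had the lowest overall adjusted p among the uncalled members (0.06), with 3.42 and 3.28 CPM in the control, 1.88 and 2.16 CPM in RBI2 labelled 10 min and 2.05 and 2.06 CPM in CX-5461 labelled 10 min.

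Genes of related functions were examined beside the members. Protein-coding hosts of snoRNAs numbered 149 tested of 164, and 13 of them were lower and 0 higher in CX-5461 labelled 10 min against the control, where 2.98% of all genes were lower and 1.8% higher, with a median log2 fold change of -0.03 in the hosts. TAF1D, a subunit of the Pol I factor SL1 and the host of several snoRNAs, fell from 246.9 to 120.7 CPM on average (log2 fold change -1.03 ± 0.06, adjusted p = 9.9e-06). EIF4A2, an RNA helicase of translation initiation, fell from 443.2 to 247.3 CPM (-0.84 ± 0.07), and EIF5 and RABGGTB fell by 0.70 and 0.58 on the log2 scale. In RBI2 labelled 120 min 13 of these 149 hosts were higher and 22 lower than in the control, where 8.9% of all genes were higher and 9.07% lower, and TAF1D was not called there (0.02 ± 0.06).

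The same shares of all genes apply to 3 smaller lists. Among 17 core and assembly proteins of snoRNA particles, 1 was lower in CX-5461 labelled 10 min (NOP56, a core protein of box C/D particles, log2 fold change -0.27 ± 0.06) and 1 in RBI2 labelled 120 min (RPAP3, an assembly cochaperone, -0.53 ± 0.12) against the control, and 0 were higher in either. Among 14 factors of nonsense-mediated decay, the pathway known to degrade spliced host RNAs, 0 were called in CX-5461 labelled 10 min, while 3 were higher and 1 lower in RBI2 labelled 120 min. UPF1, the helicase at the centre of this pathway, rose from 120.7 to 190.0 CPM there (log2 fold change 0.65 ± 0.10, adjusted p = 0.0074). SMG5 and SMG6 rose by 0.51 and 0.49, and SMG8 fell by 0.31 on the log2 scale. Among 19 mRNAs with TOP starts other than those of ribosomal proteins, 0 were called in CX-5461 labelled 10 min, and 1 was higher and 6 were lower in RBI2 labelled 120 min, among them NPM1 (log2 fold change -0.31 ± 0.07).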

How the data were processed

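The authors first aligned the reads to the ribosomal DNA repeat. They reported more ribosomal RNA in the RBI2 libraries than in those of the control or CX-5461. The unaligned rest was quantified against GRCh38 transcripts in Salmon (1.3.0 in the submitters' processing notes). The transcript release is not given in the sources used here. The deposited values are, per transcript and library, estimated counts without normalization and TPM, per the file headers. Groups came from the sample labels.

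Transcripts were matched without version to GENCODE release 44 (225662 of 228754; the others held 1.03% to 1.13% of a library's reads), and the estimated counts deposited by the authors were summed per gene and rounded. Counts of 14 libraries in 7 groups entered 1 model in edgeR 4.0.16 (limma 3.58.1, R 4.3.3): TMM scaling, filterByExpr with a minimum count of 10, quasi-likelihood F test, Benjamini-Hochberg adjustment over 15426 genes, calls at an adjusted p under 0.05. CPM values use TMM-scaled library sizes, and deposited TPM values served only to rank members by level. In simulated data for CX-5461 labelled 10 min against the control, 58 of 100 genes changed 2-fold and 92 of 100 changed 4-fold were called, with 13 false calls among 15139 genes. The common coefficient of variation between replicates was 12.3%.

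The members and the gene lists were chosen with earlier results of these data known. Given in full were GAS5, ZFAS1, DANCR, SNHG1, the 6 members with the most reads and every member called against the control or between compounds; of each list, at most 4 called genes with the smallest adjusted p were named. The snoRNA and promoter sequences came from hg38 and RefSeq, and a snoRNA sequence of SNHG4 is not reported here; the RefSeq table gives snoRNA positions without strand, and SNHG6, SNHG9, SNHG15 and SNHG25 had no promoter entry. Members that overlap a protein-coding gene (SNHG3, SNHG4, SNHG5, SNHG14, SNHG20 and SNHG28) or another long noncoding RNA gene or pseudogene (among them DANCR, SNHG16, SNHG31 and SNHG32) on the same strand depend on how Salmon divides shared reads. Alternatives were DESeq2 1.42.0, its size factors, scaling without mitochondrial genes, no low-count filter, a length offset, sums without retained-intron transcripts, a 2-fold limit, an unadjusted p, the replicate number as a block, only the libraries of a comparison, and each library left out.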

Additional observations from a re-analysis of the deposited data

Results flagged for a closer look

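The contrasts below stand out because the 2 compounds differed under the same label by a test of the difference itself (edgeR, adjusted over all genes tested). They are given as log2 fold changes of RBI2 over CX-5461. At the label 10 min SNHG4 (1.49), SNHG3 (1.42), SNHG12 (1.39), SNHG17 (1.23), SNHG26 (1.10), SNHG15 (1.00), GAS5 (0.94), SNHG20 (0.94) and SNHG16 (0.59) were higher with RBI2. At the label 120 min SNHG3 (0.98), SNHG17 (0.77), SNHG4 (0.68), SNHG16 (0.43) and GAS5 (0.28) were higher with RBI2. Without isoforms annotated as retained introns the GAS5 values were -0.55 and -0.40, and SNHG3 stood at 0.43 at the label 120 min. SNHG12 (1.35, adjusted p = 0.24) lost the call at the label 10 min. SNHG20 has 0 such isoforms, but its call at the label 10 min (0.93, adjusted p = 0.056) was also lost under that setting. The length offset lost the SNHG20 call as well. Groups of 2 libraries are too small for a test of a single outlying library.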

How the results depend on the processing

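Of 45 called values of single members, all 45 kept direction and call under DESeq2, under its size factors and with scaling that left out mitochondrial genes, 44 without the low-count filter, 33 with the length offset, 31 with only the libraries of the comparison and 32 without retained-intron transcripts, where 8 lost the call and 5 reversed. The reversed log2 fold changes were GAS5 in CX-5461 10 min against control (0.67), against CX-5461 120 min (0.034), in RBI2 10 min against CX-5461 10 min (-0.55) and in RBI2 120 min against CX-5461 120 min (-0.40), and SNHG3 in RBI2 10 min against RBI2 120 min (0.11). Leaving out each library kept 547 of 630 values, with 0 reversed, and 21 of the 45 in all 14 fits. The replicate numbers did not pair the libraries, since 3 of 21 correlations were over 0.1 (range -0.179 to 0.18). The replicate block kept 44 of the 45 calls and lost SNHG4 in RBI2 120 min against control (0.39, adjusted p = 0.051).

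The counts of called members that moved were as follows, and the cause was not tested. The calls over all genes moved under these settings too, so the counts alone are no result about the members. For CX-5461 10 min against control, 253 genes in all passed with the 2-fold limit, 3476 by unadjusted p and 3 with its own libraries. For RBI2 120 min against control these were 280, 5533 and 0. Ranges with a library left out come from fits with 1 library in a group. For RBI2 10 min against control (0) they were 4 by unadjusted p, 1 by DESeq2, 2 without the filter and 0 to 13 with a library left out. For RBI2 30 min against control (0) they were 5, 2, 5 and 0 to 9. For RBI2 120 min against control (3) they were 0 with the 2-fold limit, 5 by unadjusted p, 5 without the filter, 1 with the length offset, 0 with its own libraries and 0 to 10 with a library left out. For CX-5461 10 min against control (9) they were 5 with the 2-fold limit, 17 by unadjusted p, 0 with its own libraries and 6 to 17. For CX-5461 30 min against control (0) they were 2 by unadjusted p, 3 without the filter and 0 to 11. For CX-5461 120 min against control (1) they were 0 with the 2-fold limit, 6 by unadjusted p, 2 by DESeq2, 3 without the filter, 0 with the length offset, 0 without retained-intron transcripts, 0 with its own libraries and 0 to 7. For RBI2 30 min against CX-5461 30 min (0) they were 4 by unadjusted p and 1 each by DESeq2, without the filter and with its own libraries. For RBI2 120 min against CX-5461 120 min (5) they were 0 with the 2-fold limit, 9 by unadjusted p and 1 to 9. For RBI2 10 min against RBI2 30 min (0) they were 4 by unadjusted p, 1 by DESeq2, 1 without the filter and 5 with its own libraries. For RBI2 120 min against RBI2 30 min (0) they were 2 by unadjusted p and 2 with its own libraries. For RBI2 10 min against RBI2 120 min (1) they were 0 with the 2-fold limit, 5 by unadjusted p, 2 by DESeq2, by its size factors, with scaling that left out mitochondrial genes and without the filter, 0 with the length offset, 4 with its own libraries and 0 to 4. For CX-5461 10 min against CX-5461 30 min (9) they were 14 by unadjusted p and 6 to 13. For CX-5461 120 min against CX-5461 30 min (0) they were 5 by unadjusted p, 2 by DESeq2, 1 without the filter and 0 to 4. For CX-5461 10 min against CX-5461 120 min (8) they were 2 with the 2-fold limit, 5 with the length offset and 2 to 10. Among the 7 groups (10) they were 16 without the filter and 7 to 18. The median log2 fold change over the members moved to 0.17 with the length offset for RBI2 10 min against control, to 0.22 for CX-5461 30 min against control, and for CX-5461 10 min against CX-5461 120 min to -0.18 without retained-intron transcripts and -0.22 with its own libraries. With a library left out it ran from -0.12 to 0.23, from -0.11 to 0.32 and from -0.011 to 0.44 for RBI2 10, 30 and 120 min against control, from 0.016 to 0.26 and from -0.28 to 0.019 for CX-5461 30 and 120 min against control, from -0.55 to -0.36 for CX-5461 10 min against CX-5461 30 min and from -0.35 to -0.16 against CX-5461 120 min. In the comparisons with the control the lowest came without control 2 and the highest without control 1. With 2 libraries a group, the 9 members under 5 CPM could show only large differences.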
